A study of Rattus norvegicus with 20 samples.

Results

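The 10 genes described here are grouped as myostatin and activin signalling genes. Mstn is the ligand gene, and Acvr2a, Acvr2b, Acvr1b and Tgfbr1 are receptor genes. Fst, Fstl3 and Fstl1 are extracellular binding-protein genes, and Smad3 and Smad7 are intracellular genes. All 10 were chosen by symbol, for their place in the pathway, from the 32495 named rows of a gene count table. Each symbol occurred in 1 row. None of the 10 changed in the gastrocnemius muscle of tumour-bearing rats after chemotherapy, or with fish oil beside chemotherapy, by the thresholds used. By edgeR's p the nearest to a change was Acvr2b, at 0.711 and 0.708 of its TUMOUR STD level in the chemotherapy arms, a difference within the spread between samples. Between the 2 chemotherapy arms its log2 fold change was -0.01. By exact permutation the smallest p was that of Smad3 in CHEMO FO versus TUMOUR STD (0.0451, not adjusted).

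Myostatin is a secreted ligand of the TGF-beta family, made mainly by skeletal muscle, that restrains muscle mass. Myostatin and the activins bind a type II receptor (ACVR2B or ACVR2A), which recruits and phosphorylates a type I receptor (ALK4, the product of Acvr1b, or ALK5, the product of Tgfbr1). The type I receptor phosphorylates SMAD2 and SMAD3, which enter the nucleus with SMAD4, while follistatin (Fst) and FSTL3 bind the ligands outside the cell and SMAD7 inhibits the activated receptors. The pathway is known in muscle for its part in atrophy, including the wasting of tumour-bearing animals.

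All animals were female Fischer 344 rats, with a stated age of 11 to 12 and no unit, that bore the Ward colorectal carcinoma, which grew for 2 weeks before treatment. TUMOUR STD rats received no chemotherapy and ate the standard diet. CHEMO STD rats ate the standard diet and received 2 cycles of CPT-11 (irinotecan) followed by 5-FU at 50 mg/kg, and CHEMO FO rats received the same cycles with a fish oil diet, rich in EPA and DHA, from the first day of chemotherapy. The muscle was taken 7 days after the last cycle, and the data used here hold no tumour-free group. Total RNA depleted of ribosomal RNA was sequenced in 5 TUMOUR STD, 7 CHEMO STD and 8 CHEMO FO libraries. Libraries CHEMO STD 1 and 2 share a name stem. Over highly counted genes they differed by a chi-square of 2.23 per gene, against 13.7 to 255 in the 58 other pairs within a group. Over genes with few counts their value was 1.96, and some other pairs came as close (1.84 for CHEMO STD 3 and 5). By the name and the highly counted genes, CHEMO STD 1 and 2 were counted as 1 sample, which leaves 19 samples (n = 5, 6 and 8). The labels number the samples without naming the rats, so the p-values measure the spread between these samples.

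Counts on named genes ran from 5422118 to 10857477 per library in TUMOUR STD, from 3020821 to 10516783 in CHEMO STD and from 3035841 to 9119394 in CHEMO FO. The libraries were muscle by their markers: 5 skeletal muscle fibre genes summed to between 108511 and 213360 CPM in every sample (CPM being a gene's count as a share of its library, on a common scale). Some samples stood apart in markers of other cells. Keratinocyte genes summed to 463 CPM in TUMOUR STD 10 and 103 CPM in CHEMO FO 16 against group medians of 6.35 and 3.99, and lymphocyte genes to 95.8 CPM in CHEMO STD 7 against a median of 12.3. Macrophage genes summed to 732 CPM in CHEMO FO 18, against a median of 261, and that sample also held the lowest fibre sum. No member was called in any of the 3 comparisons when any of these 4 libraries was left out, and their part in the values below was not otherwise tested.

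The 250 bases upstream of the start of the paired type II receptor genes differed in base composition. They are printed for Acvr2b because it came nearest to a change by edgeR's p, and for Acvr2a as its close relative. They are from RefSeq (rat build GRCr8, a later build than the Rnor 6 of the counts), both on the plus strand, at chr8:128016513-128016762 for Acvr2b and chr3:53614536-53614785 for Acvr2a. Capitals mark GGGCGG, the core of the SP1 motif, or its reverse complement CCGCCC.
Acvr2b: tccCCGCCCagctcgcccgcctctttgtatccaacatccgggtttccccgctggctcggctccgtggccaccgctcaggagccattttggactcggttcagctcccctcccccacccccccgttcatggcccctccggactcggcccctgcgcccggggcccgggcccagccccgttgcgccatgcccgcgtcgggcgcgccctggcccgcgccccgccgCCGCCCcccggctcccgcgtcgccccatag
Acvr2a: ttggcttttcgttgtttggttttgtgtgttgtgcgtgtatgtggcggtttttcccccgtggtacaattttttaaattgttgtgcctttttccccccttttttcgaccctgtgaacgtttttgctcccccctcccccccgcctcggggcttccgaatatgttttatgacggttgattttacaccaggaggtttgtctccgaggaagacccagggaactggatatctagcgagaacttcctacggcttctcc
The Acvr2b stretch held 76.8% G and C, 31 CpG dinucleotides and 2 copies of the SP1 core. The Acvr2a stretch held 49.2% G and C, 13 CpG dinucleotides and no copy. RefSeq gave such a stretch for 8 of the 10 genes: 7 of them, all but Acvr2a, held 68.4% to 79.6% G and C, against a median of 51.2% over 33469 promoters, and had GGGCGG on either strand, which 30.5% of all promoters hold. The SMAD-binding sequence CAGAC, searched on both strands, was found upstream of Fstl3 alone (2 copies), and 42.9% of all promoters hold it. The 8-base palindrome GTCTAGAC shares AGAC with CAGAC but does not contain it. The palindrome was found upstream of none of the 8 and in 0.173% of all promoters. These are letters in a window, not measured binding sites.

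Levels below are CPM scaled by TMM, edgeR's factor for differences in library composition. Changes are log2 fold changes from edgeR's quasi-likelihood test over the 11716 genes that passed a filter on low counts, all 10 members among them. Genes past an unadjusted p of 0.05 that also differed 1.5-fold or more were called, and adjusted p-values are Benjamini-Hochberg values over all genes tested. Transcript lengths were not used, so the levels of one gene are not compared with those of another.

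Mstn, the ligand gene, was expressed in every sample. The 5 TUMOUR STD samples held 26.2, 28.9, 29.1, 36.6 and 47.7 CPM. CHEMO STD ran from 29.4 to 44.5 CPM with a median of 36.2, and CHEMO FO from 23.1 to 63.2 CPM with a median of 27.2. The groups overlapped, and the highest value of all 19 samples, CHEMO FO 15, lay well above the next in its group (38.5 CPM). The mean was 33.7 ± 8.72 CPM in TUMOUR STD (SD, n = 5), 36.3 ± 5.01 in CHEMO STD (SD, n = 6) and 33.3 ± 13.2 in CHEMO FO (SD, n = 8). The log2 fold change was 0.10 (SE 0.217, 95% interval -0.35 to 0.55) for CHEMO STD versus TUMOUR STD and -0.13 (SE 0.195, -0.53 to 0.28) for CHEMO FO versus CHEMO STD. It was -0.03 (SE 0.205, -0.45 to 0.39) for CHEMO FO versus TUMOUR STD, and no adjusted p in edgeR's test was below 0.915. All 3 intervals lay within a 1.5-fold change in either direction. Without CHEMO FO 15 the log2 fold change with fish oil was -0.32 (edgeR unadjusted p = 0.0532), which was not called. In CHEMO STD versus TUMOUR STD it ran from 0.02 without TUMOUR STD 10 to 0.25 without TUMOUR STD 11 (edgeR unadjusted p = 0.2755 in the second). The statement on 1.5-fold is for the fits with all samples in. It was not examined with a sample left out, and single samples moved these values, so it may not hold without them.

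Acvr2b encodes the type II receptor with the highest affinity for myostatin. The TUMOUR STD samples held 5.03, 7.53, 8.02, 9.22 and 12.2 CPM. CHEMO STD ran from 2.53 to 9.60 CPM with a median of 5.43, and CHEMO FO from 3.80 to 9.60 with a median of 5.81. Of the chemotherapy samples, 1 of 6 in CHEMO STD and 2 of 8 in CHEMO FO lay above the TUMOUR STD median, but the ranges overlapped widely. The mean was 8.40 ± 2.62 CPM in TUMOUR STD (SD, n = 5), 5.90 ± 2.37 in CHEMO STD (SD, n = 6) and 6.16 ± 2.10 in CHEMO FO (SD, n = 8). The fold was 0.711 (95% interval 0.475 to 1.06, edgeR adjusted p = 0.719, two-sided exact permutation p = 0.139) for CHEMO STD versus TUMOUR STD. It was 0.708 (0.483 to 1.04, edgeR adjusted p = 0.571, exact permutation p = 0.118) for CHEMO FO versus TUMOUR STD, which shares its control samples with the first. Between the chemotherapy arms the log2 fold change was -0.01 (SE 0.257, -0.54 to 0.53).

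Acvr2b was counted in few reads, 8 to 123 per library, and single samples set its call. The gene passed both thresholds without TUMOUR STD 11 (-0.63 in each comparison with TUMOUR STD), without CHEMO STD 6 (-0.65 for CHEMO STD) and without CHEMO FO 15 (-0.61 for CHEMO FO). These are the lowest control sample and the highest sample of each arm. Without TUMOUR STD 9, the highest control sample, the values were -0.32 for CHEMO STD and -0.32 for CHEMO FO, not called. Averaging both arms against TUMOUR STD, a comparison added after the values were seen, gave -0.50 (SE 0.238, 95% interval -0.99 to -0.00, edgeR adjusted p = 0.553). The unadjusted p was below 0.05 and the fold short of 1.5, so it was not called. That p was above 0.05 with RLE factors, with replicates 1 and 2 kept apart, and in all but 7 of the 21 fits that left out a library or the paired libraries. The value was -0.32 without TUMOUR STD 9 and -0.63, which was called, without TUMOUR STD 11. In this averaged comparison, with all samples in, 9.00% of all tested genes had an unadjusted p below 0.05, 2.66% were called and 0.00% had an adjusted p below 0.05.

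Acvr2a, the other type II receptor gene, held 23.9, 35.7, 37.6, 39.9 and 43.6 CPM in TUMOUR STD. It ran from 27.9 to 45.7 CPM (median 43.7) in CHEMO STD and from 28.9 to 53.3 (median 38.1) in CHEMO FO. The log2 fold changes were 0.15 (SE 0.174) for CHEMO STD versus TUMOUR STD, -0.03 (SE 0.156) for CHEMO FO versus CHEMO STD and 0.12 (SE 0.164) for CHEMO FO versus TUMOUR STD. Each interval lay within 1.5-fold. A difference between the responses of Acvr2a and Acvr2b was not tested.

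The type I receptor genes were spread in like measure. Acvr1b held 23.3, 24.2, 28.1, 35.5 and 39.6 CPM in TUMOUR STD. It ran from 25.2 to 38.1 (median 33.6) in CHEMO STD and from 17.6 to 41.2 (median 27.4) in CHEMO FO, where 7 of 8 samples lay below the CHEMO STD median. Its log2 fold change with fish oil was -0.24 (SE 0.162, 95% interval -0.57 to 0.10, edgeR adjusted p = 0.974, exact permutation p = 0.161), and -0.33 without CHEMO FO 15, where the unadjusted p was below 0.05 but the fold short of 1.5. Tgfbr1 held 16.98, 19.01, 26.2, 26.9 and 28.9 CPM in TUMOUR STD. Its range was 23.0 to 32.8 (median 27.6) in CHEMO STD and 16.1 to 41.3 (median 22.5) in CHEMO FO, with the highest value in CHEMO FO 18. Its log2 fold change was 0.23 (SE 0.202) for CHEMO STD versus TUMOUR STD and -0.14 (SE 0.180) for CHEMO FO versus CHEMO STD, and -0.28 in the second without CHEMO FO 18. Neither gene passed the thresholds in a comparison.

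**Figure D1:**
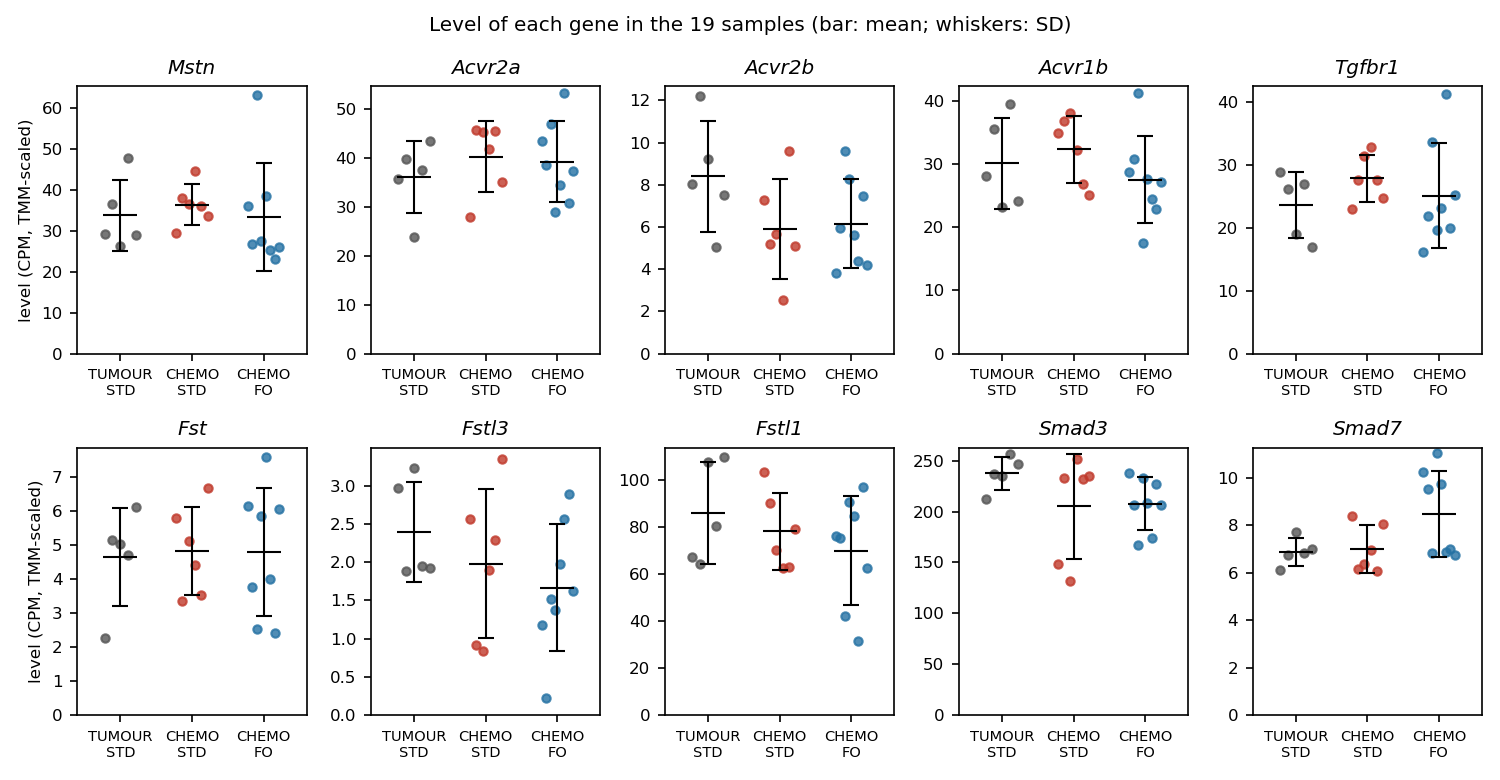
Level of each of the 10 genes (vertical axes: CPM, TMM-scaled, from 0) in the 5 TUMOUR STD, 6 CHEMO STD and 8 CHEMO FO samples, with points for samples, a bar for the mean and whiskers for the SD. The groups overlapped for each gene, Mstn in CHEMO FO reached 63.2 CPM in 1 sample, and the Acvr2b means were 8.40, 5.90 and 6.16 CPM.

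Among the extracellular binding proteins, Fst, which encodes the ligand-neutralising follistatin, held 2.27, 4.70, 5.04, 5.16 and 6.13 CPM in TUMOUR STD. It ran from 3.37 to 6.69 (median 4.77) in CHEMO STD and from 2.41 to 7.62 (median 4.94) in CHEMO FO. Its log2 fold changes lay between -0.04 and 0.07, with intervals that reached beyond 1.5-fold in each comparison. Fstl3, whose product also binds myostatin and activins, was the least counted member, with 1 to 34 counts per library. It held 1.88, 1.93, 1.95, 2.96 and 3.23 CPM in TUMOUR STD, and in CHEMO FO 5 of 8 samples lay below the lowest of these. The log2 fold change was -0.49 (SE 0.378, 95% interval -1.27 to 0.30, edgeR adjusted p = 0.697, exact permutation p = 0.149) for CHEMO FO versus TUMOUR STD, so a fall of more than 1.5-fold could not be told from no change at this depth.

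Fstl1 encodes a secreted glycoprotein that shares a follistatin-like domain and is known more for binding BMP ligands than myostatin. The TUMOUR STD samples held 64.4, 67.3, 80.3, 108 and 110 CPM. CHEMO STD ran from 62.5 to 103 CPM (median 74.6) and CHEMO FO from 31.3 to 97.0 (median 75.6), with the 2 lowest of all samples in CHEMO FO 18 (31.3) and CHEMO FO 15 (41.9). The log2 fold change was -0.14 (SE 0.238), -0.17 (SE 0.213) and -0.31 (SE 0.223) in the chemotherapy comparison, the fish oil comparison and CHEMO FO versus TUMOUR STD. The lowest adjusted p in edgeR's test was 0.666.

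Smad3, the receptor-activated SMAD gene, held 213, 235, 237, 247 and 257 CPM in TUMOUR STD. CHEMO STD ran from 131 to 252 (median 233), with 2 samples, CHEMO STD 4 (131) and CHEMO STD 1 and 2 (149), apart from the other 4 at 232 CPM or more. CHEMO FO ran from 168 to 238 (median 208), and 5 of its 8 samples lay below the whole TUMOUR STD range. The log2 fold change was -0.21 (SE 0.145, 95% interval -0.51 to 0.09, edgeR adjusted p = 0.665) for CHEMO FO versus TUMOUR STD. The two-sided exact permutation test of the same samples gave p = 0.0451 for a difference of -0.20 in mean log2 CPM. That was the only p below 0.05 among the 30 such tests of the members, and it is not adjusted for them. For CHEMO STD versus TUMOUR STD the log2 fold change was -0.22 (SE 0.154), and -0.12 without CHEMO STD 4, and for CHEMO FO versus CHEMO STD it was 0.02 (SE 0.138).

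Smad7, the inhibitory SMAD gene that the pathway itself induces, held 6.10, 6.75, 6.81, 7.003 and 7.70 CPM in TUMOUR STD. CHEMO STD ran from 6.05 to 8.37 (median 6.66) and CHEMO FO from 6.73 to 11.0 (median 8.24). In CHEMO FO 4 samples (9.51, 9.73, 10.2 and 11.0 CPM) lay above every sample of both other groups, and the other 4, at 6.73 to 6.98 CPM, lay among them. The highest CHEMO STD value is the mean of libraries CHEMO STD 1 (9.92 CPM) and CHEMO STD 2 (6.83 CPM). The first of these, taken alone, lay above the 9.51 and 9.73 CPM of CHEMO FO. The log2 fold change was 0.25 (SE 0.162, 95% interval -0.09 to 0.58, edgeR adjusted p = 0.974, exact permutation p = 0.0899) for CHEMO FO versus CHEMO STD. It was 0.27 (SE 0.169, -0.08 to 0.62, edgeR adjusted p = 0.618, exact permutation p = 0.107) for CHEMO FO versus TUMOUR STD and 0.02 (SE 0.178) for CHEMO STD versus TUMOUR STD.

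In CHEMO STD versus TUMOUR STD, which asks what chemotherapy did on the standard diet, none of the 10 members was called by edgeR, and none had an unadjusted p below 0.05, where 279 genes (2.38% of all tested) were called and 762 (6.50%) had such a p. The members' median log2 fold change was 0.05, beside -0.00 over all genes. In CHEMO FO versus CHEMO STD, which asks what fish oil added, 0 members were called and 0 had an unadjusted p below 0.05, where 195 genes (1.66%) were called and 528 (4.51%) had such a p, and the members' median was -0.08 beside -0.01. For CHEMO FO versus TUMOUR STD the counts were 0 members called and 0 below 0.05, against 422 genes (3.60%) and 1059 (9.04%), with a members' median of -0.08 beside 0.00. DESeq2 called 0 members in each comparison as well. At an adjusted p below 0.05 edgeR called 0 genes of the whole table (0.00%) in each comparison, and DESeq2 0, 0 and 11. The 3 comparisons share groups, so their values for a member are not independent of each other.

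The intervals set what was measurable. The 95% interval of the log2 fold change lay within 1.5-fold (0.585 on the log2 scale) for 5 members in CHEMO STD versus TUMOUR STD: Mstn, Acvr2a, Acvr1b, Smad3 and Smad7. It did so for 7 members in CHEMO FO versus CHEMO STD, all but Fst, Fstl3 and Fstl1, and for 5 in CHEMO FO versus TUMOUR STD: Mstn, Acvr2a, Acvr1b, Tgfbr1 and Smad3. For the others the interval reached past 1.5-fold, so a change of that size was not excluded. The interval of Smad7 in CHEMO FO versus CHEMO STD ended at 1.4998-fold, at the bound and not clear of it. All these intervals are from the fits with every sample in. Over all 30 pairs of a member and a comparison the ranges of the groups overlapped. The share of all tested genes with overlapping ranges was not counted, so this describes the members and does not set them apart.

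**Figure D2:**
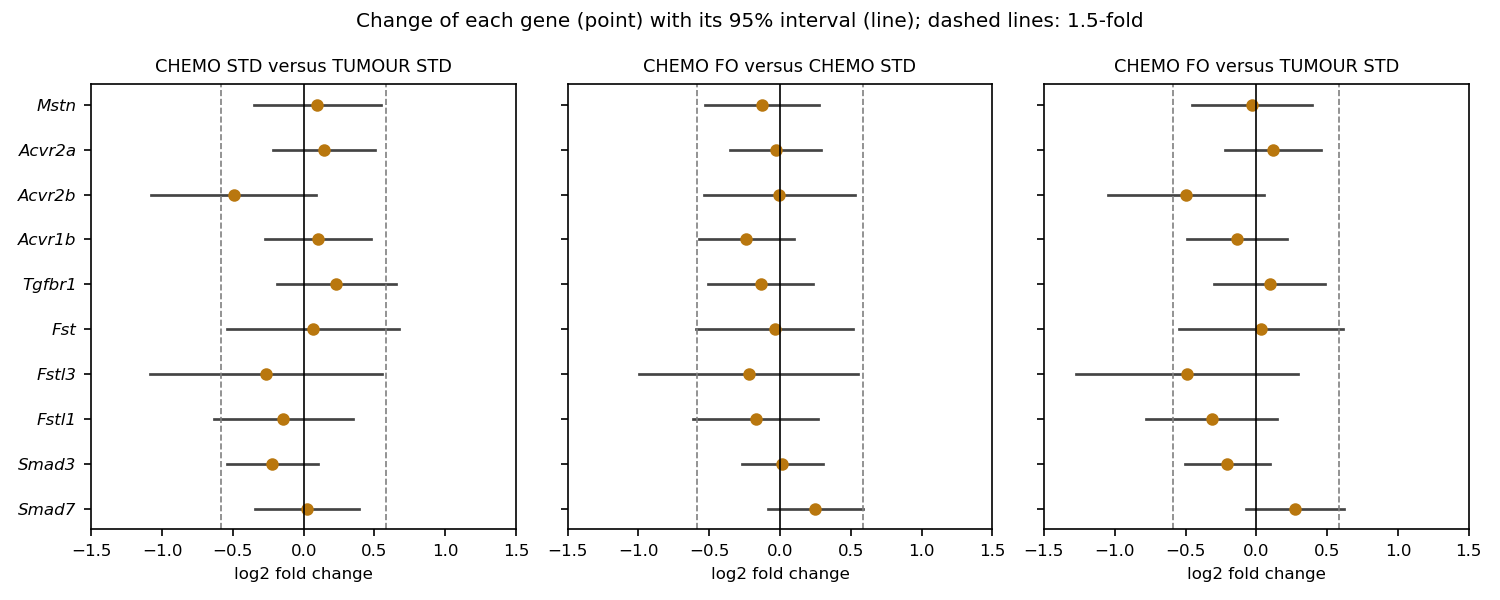
Log2 fold change (horizontal axes) of each gene in the 3 comparisons, with a line for its 95% interval and dashed lines at 1.5-fold. Every interval crosses 0, and those of Acvr2b against TUMOUR STD reach from -1.08 to 0.09 and from -1.05 to 0.05.

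The other genes of the pathway were taken from 6 lists by role, 64 genes in all, of which 56 passed the filter. In CHEMO STD versus TUMOUR STD, 0 of the 56 were called higher and 1 lower, beside 0.930% and 1.45% of all tested genes. The 1 was Bmp5, a ligand of the BMP branch, which held 4.87 to 5.43 CPM in TUMOUR STD and 2.36 to 3.96 CPM in CHEMO STD, with no overlap. It fell by 0.69 on the log2 scale (SE 0.276, edgeR adjusted p = 0.719). In CHEMO FO versus TUMOUR STD, Bmp5 fell by 0.90 (SE 0.260, edgeR adjusted p = 0.486), and the ranges overlapped: CHEMO FO ran from 1.48 to 5.08 CPM, with CHEMO FO 17 inside the TUMOUR STD range. Both calls held in each of the 21 fits that left out a library or the paired libraries. The gene was counted in 6 to 53 reads per library, and the share of all tested genes with no overlap between these groups was not counted.

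In CHEMO FO versus CHEMO STD, 2 of the 56 were called higher and 0 lower, beside 0.615% and 1.05% of all tested genes. Tgif1 encodes a corepressor of SMAD-driven transcription, and Pmepa1 is a gene induced by SMAD2 and SMAD3. Tgif1 rose by 1.40 on the log2 scale, but 1 sample, CHEMO FO 18, carried the change. It held 63.2 CPM against 6.21 or less in the other 7. Without it the log2 fold change was -0.10. Pmepa1, at 2.96 to 8.04 CPM in CHEMO FO and 1.25 to 4.92 in CHEMO STD, was higher by 0.67 (SE 0.305, edgeR adjusted p = 0.974), and its call was lost in 7 of 21 fits with a library or the paired libraries left out, CHEMO FO 18 among them.

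In CHEMO FO versus TUMOUR STD, 1 of the 56 was called higher (Tgif1, 1.52, and 0.03 without CHEMO FO 18) and 3 lower, beside 1.09% and 2.51% of all tested genes. The 3 lower were Bmp5, Ltbp3 and Col1a1. Ltbp3, which encodes a protein that holds latent TGF-beta in the matrix, ran from 24.2 to 49.3 CPM in TUMOUR STD and 16.3 to 35.2 in CHEMO FO. It fell by 0.63 (SE 0.199, edgeR adjusted p = 0.486), a call lost in 5 of 21 such fits. Col1a1, a collagen gene that is a target of SMAD3 and also stands in the fibroblast list, fell by 1.37 (SE 0.599, edgeR adjusted p = 0.525), a call likewise lost in 5 of 21. The fibroblast genes summed to between 2895 and 13187 CPM in TUMOUR STD and between 1731 and 6981 in CHEMO FO, and all 6 that were tested had a log2 fold change below 0, 1 of them called. The part of those cells in the Col1a1 and Ltbp3 values was not tested, and in bulk muscle fewer cells of a type and less RNA per cell cannot be told apart.

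The extracellular regulators store, process or block the ligands. Their median log2 fold change was -0.43 in CHEMO FO versus TUMOUR STD, where all 12 tested had a value below 0 (Ltbp3 called, and Bmp1 and Tll1 with an unadjusted p below 0.05), as had 49.6% of all genes. In CHEMO STD versus TUMOUR STD 11 of 12 had a value below 0, against 50.3% of all genes, and none was called. Ltbp3 (-0.53) alone of the 12 had an unadjusted edgeR p below 0.05 there, short of 1.5-fold. The median of the 12 was -0.32 there, beside a median of 0.00 over all genes in each comparison. The ligands had medians of -0.19 and -0.17 in the same order, the other receptors -0.26 and -0.24, and the SMAD2/3 target genes -0.39 and -0.38. The SMADs and SMAD regulators lay nearer to 0, at -0.06 and -0.10, and the 4 tested SMAD1/5 target genes had medians of -0.19 and 0.08. Markers of other cells and fibres differed between the same groups. The summed smooth muscle genes ran from 167 to 260 CPM in TUMOUR STD, from 89.9 to 155 in CHEMO STD, with no overlap, and from 65.4 to 180 in CHEMO FO, and 3 of the 5 tested (Myh11, Acta2 and Tagln) were called lower in both comparisons with TUMOUR STD. The median sums in TUMOUR STD, CHEMO STD and CHEMO FO were 14108, 8190 and 9531 CPM for slow fibre genes and 212, 173 and 168 CPM for endothelial genes. Their part in the values of the pathway genes was not tested. Of the 56 tested genes of the 6 lists, 5 lower and 0 higher had an unadjusted edgeR p below 0.05 in CHEMO STD versus TUMOUR STD. The share of all tested genes, in either direction, was 6.50%. In CHEMO FO versus TUMOUR STD 9 lower and 1 higher had such a p, beside 9.04% of all tested genes. Acvr1, a type I receptor gene of the BMP branch, was among the lower in both, under 1.5-fold. Its log2 fold changes were -0.47 (edgeR adjusted p = 0.719) in CHEMO STD versus TUMOUR STD and -0.40 (edgeR adjusted p = 0.502) in CHEMO FO versus TUMOUR STD. The members' own relatives were not called: over Gdf11, Inhba, Inhbb, Tgfb1, Tgfb2, Tgfb3, Acvr1c, Tgfbr2, Smad2, Smad4 and Wfikkn2 no unadjusted p was below 0.05, and the lowest was that of Inhba (-0.80, edgeR adjusted p = 0.553) in CHEMO FO versus TUMOUR STD. Inha and Wfikkn1 were below the filter, with at most 7 and 15 counts in a library.

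**Figure D3:**
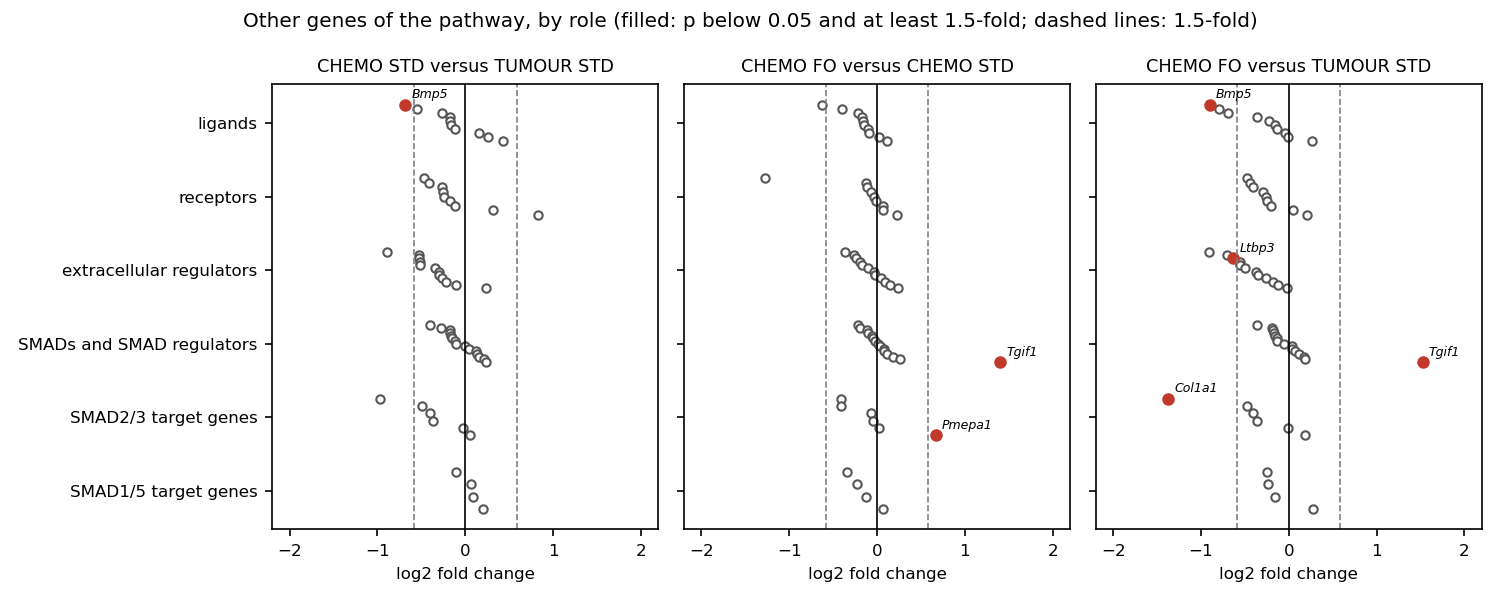
Log2 fold change (horizontal axes) of the 56 tested genes of the 6 pathway lists in the 3 comparisons, by role, with filled points for genes called and dashed lines at 1.5-fold. Bmp5 lies lower in both comparisons with TUMOUR STD, and Tgif1 (1.40 and 1.52) rests on CHEMO FO 18.

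Samples of 1 group differed together in some members. Across the 19 samples, as deviations of log2 CPM from the group mean, Fstl1 followed the summed level of 6 fibroblast genes (Pearson r = 0.79, Spearman rho = 0.82). By 100000 permutations within groups the p was 7e-05 and 9e-05, and 0.00042 and 0.00054 after Benjamini-Hochberg adjustment over the 6 relations examined. Without the 2 samples farthest from the median of the fibroblast sum r was 0.77, and it was 0.94 within CHEMO STD alone (n = 6) and 0.78 within CHEMO FO alone (n = 8). The sum adds plain CPM, so Col1a1 made up most of the high sums: 10268 of 13187 CPM in TUMOUR STD 12 and 4925 of 6981 in CHEMO FO 16. In CHEMO FO 18, the lowest of its group, Col1a1 held 202 of 1731 CPM. The relation without Col1a1 was not examined. The other 5 relations, of Mstn with Acvr2b, Fst and the slow and fast fibre genes and of Smad3 with Smad7, had adjusted permutation p-values of 0.180 or more. Mstn and the summed slow fibre genes had r = -0.52 (permutation p = 0.060), which was -0.19 without the 2 farthest samples, and the sign differed between CHEMO STD (0.76) and CHEMO FO (-0.61).

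Among all 45 pairs of members, examined after the values were seen, 2 had an adjusted permutation p below 0.05 for Pearson's r, and both held Fstl1. Tgfbr1 was lower where Fstl1 was higher (r = -0.89, rho = -0.85, permutation p = 0.00011 and 0.00012, adjusted 0.00495 and 0.0054). That relation had r = -0.89 without the 2 farthest samples, -0.83 without CHEMO FO 18, -0.76 within CHEMO STD and -0.91 within CHEMO FO. Acvr2a and Fstl1 had r = -0.69 (rho = -0.57, permutation p = 0.00139 and 0.0174, adjusted 0.0313 and 0.138), so the rank correlation did not pass. Mstn and Acvr1b had r = 0.69 (rho = 0.57, adjusted permutation p = 0.0666 and 0.138), and 0.42 without the 2 farthest samples. The samples of a pair share their library and its depth.

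**Figure D4:**
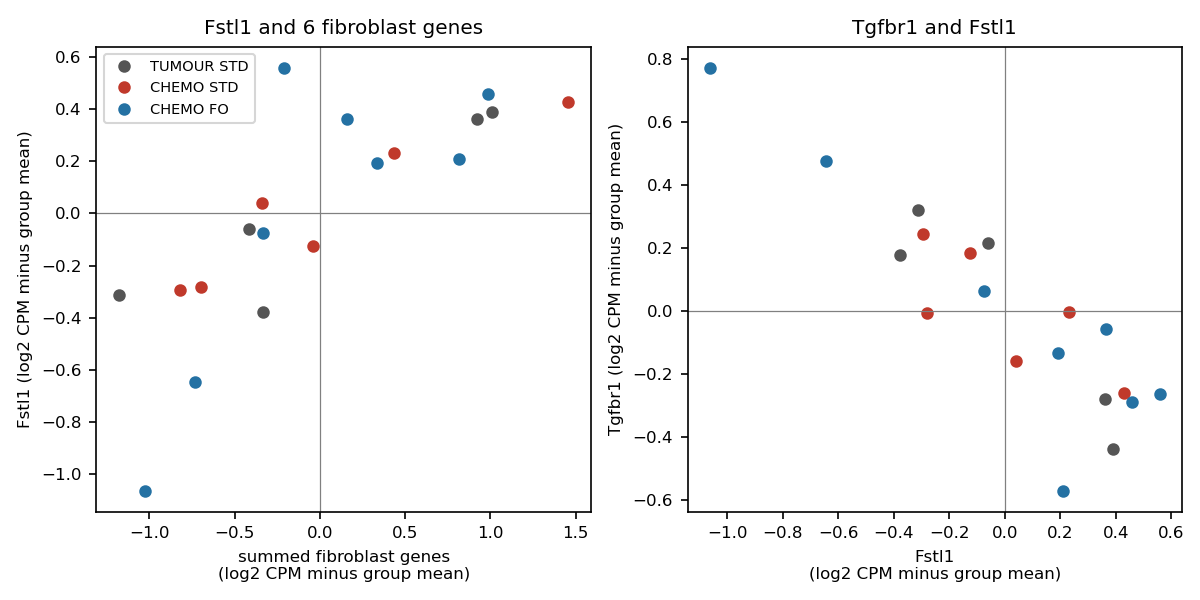
Deviation of log2 CPM from the group mean in the 19 samples, for Fstl1 (vertical axis) against 6 summed fibroblast genes (left) and for Tgfbr1 against Fstl1 (right), with points coloured by group. Fstl1 rises with the fibroblast genes (r = 0.79) and Tgfbr1 falls as Fstl1 rises (r = -0.89).

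The genes whose levels followed Mstn most closely over the 19 samples, by the same deviations, were Kifbp (r = 0.85), Ganc (0.81), AABR07035818.1 (0.79), Ppp1r3c (0.78) and AABR07068127.1 (0.78), out of 11715 genes ranked. These are the highest of many values and are given as a description. Of the members, Acvr1b stood 31st in that order and Acvr2a, at r = 0.42, 1306th. Acvr2b, Fst, Smad3 and Smad7 had values between -0.10 and 0.01.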

How the data were processed

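RNA from gastrocnemius muscle was sequenced in 20 libraries (stranded total RNA, rRNA depleted). Per the labels and the study's methods, the authors called bases with CASAVA 1.9, trimmed with Trim Galore 0.4.1, checked quality with FastQC 0.11.4, aligned with TopHat 2.0.10 and Bowtie2 to Rnor 6, and deposited raw counts per gene, with no normalisation. How reads were counted on genes is not given in the sources used here. Rows without a gene name (388, holding 0.102% to 0.272% of a library's counts) were left out.

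Counts of CHEMO STD 1 and 2 were summed for fits and their CPM averaged for levels. A single quasi-likelihood model over the 3 conditions was fitted in edgeR 4.0.16 (R 4.3.3) to genes passing filterByExpr (a count of 10 and a total of 15 at least), with TMM scaling. The alternatives were DESeq2 1.42.0, limma 3.58.1 voom with quality weights, other scalings and filters, a fit on only the conditions compared, exact permutation tests of log2 CPM (prior count 2), and each library left out in turn. Scripts were tested on simulated data. The members and lists were chosen with earlier results of these data known. Named genes were the members, 14 preset relatives, pathway-list genes called (1 listed gene is not reported here), and the 5 genes most like Mstn. Counting error is largest for the least counted genes, and PCR duplicates cannot be told from separate molecules. RefSeq promoters (GRCr8) were read by symbol.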

Additional observations from a re-analysis of the deposited data

Results flagged for a closer look

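A sample far from the others in its group was looked for in 45 groups (10 members and 5 called pathway genes in 3 conditions) by Dixon's test, which flags about 1 group in 20 by chance, and 4 were found. Mstn in CHEMO FO 15 held 63.2 CPM, and the next sample 38.5 CPM. Tgif1 in CHEMO FO 18 held 63.2 CPM, against 6.21 CPM in the next sample. Col1a1 and Ltbp3 in CHEMO STD 1 and 2 held 8339 and 37.2 CPM, against 3169 and 25.7 CPM in the next samples. CHEMO FO 18 also had the lowest muscle fibre sum (108511 CPM) and the highest macrophage sum (732 CPM), and CHEMO STD 1 and 2 the highest fibroblast sum of its group (11083 CPM). Their part in these values was not tested.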

How the results depend on the processing

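No paired analysis was possible because the groups share no replicate number. No member was called with replicates 1 and 2 kept apart, RLE factors, library totals, no filter, a mean of at least 10 counts, DESeq2, voom, only the 2 conditions compared, or no minimum fold. Leaving out 1 library gave 0 to 1 members called against TUMOUR STD, the 1 being Acvr2b (without TUMOUR STD 11, CHEMO STD 6 or CHEMO FO 15), and 0 between the chemotherapy arms. Counts of all genes called in the chemotherapy, the fish oil and the CHEMO FO versus TUMOUR STD comparison were 971, 722 and 1116 with no filter and 762, 528 and 1059 with no minimum fold. With libraries left out they ran from 161 (without TUMOUR STD 10) to 603 (without CHEMO STD 1 and 2), from 153 to 266, and from 273 (without CHEMO FO 18) to 584. The cause of the shifts with single libraries was not tested.

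Among the members, signs turned only for log2 fold changes reported at no more than 0.117 in size. In CHEMO FO versus CHEMO STD, Acvr2a was 0.040 with replicates 1 and 2 kept apart, Smad3 was -0.0205 with library totals, Fst was 0.00609 with voom and Acvr2b was 0.094 as a difference in mean log2 CPM. In CHEMO FO versus TUMOUR STD, voom gave -0.011 for Acvr2a and -0.15 for Tgfbr1. With libraries left out, the ranges that crossed 0 were, for CHEMO STD versus TUMOUR STD, Fst -0.089 to 0.18 and Smad7 -0.038 to 0.082. For CHEMO FO versus CHEMO STD they were Acvr2a -0.12 to 0.018, Acvr2b -0.13 to 0.17, Fst -0.17 to 0.062 and Smad3 -0.085 to 0.085. For CHEMO FO versus TUMOUR STD they were Mstn -0.22 to 0.12, Fst -0.12 to 0.15 and Tgfbr1 -0.039 to 0.18. For both arms averaged they were Mstn -0.057 to 0.19, Fst -0.10 to 0.16 and Acvr1b -0.097 to 0.094. Under voom the unadjusted limma p was below 0.05 for Tgfbr1 in CHEMO FO versus CHEMO STD (-0.34) and for Acvr2b in CHEMO FO versus TUMOUR STD (-0.57), both under 1.5-fold, as was Acvr1b in CHEMO FO versus CHEMO STD without CHEMO FO 15 (-0.33, edgeR's unadjusted p below 0.05).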
